A study of Mus musculus with 18 samples.

Results

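The comparison described here is of T-N1G cells with mock cells after 12 h in 0.3 µM MG132, an inhibitor of the proteasome. It rests on 6 of the 18 libraries of the study, 3 from each line, which were taken by their line and dose. Polyadenylated RNA was sequenced from immortalised mouse embryonic fibroblasts in 6 groups of 3 libraries: both lines under vehicle, at 0.3 µM and at 1.0 µM MG132. All 6 groups are labelled with the same deletion of the 3 small Maf genes, MafF-/-::MafG-/-::MafK-/-. The mock cells have this genotype alone, and the T-N1G cells also express the tethered Nrf1-MafG heterodimer, which the genotype labels spell T-NG1. The sources used here do not give the promoter that drives the fusion, the nature of the mock control or whether either line is a clone. Every difference between the lines therefore compares 1 T-N1G line with 1 mock line. No label says that libraries of 1 group are separate cultures. A p-value here sets a difference only against the spread between libraries within groups, estimated over all 18 libraries. That spread may be technical.

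Nrf1, the product of Nfe2l1, is a transcription factor of the cap'n'collar family that is held at the endoplasmic reticulum and normally destroyed by the proteasome. When the proteasome is inhibited, Nrf1 is extracted by the p97 ATPase, freed of its sugars, cut by the protease DDI2 and moved to the nucleus, where it switches on the genes of the proteasome subunits. Cap'n'collar factors such as Nrf1 and its relative Nrf2 bind DNA as heterodimers with a small Maf protein at the antioxidant response element. A cell without small Mafs lacks the partner, and the tethered fusion carries both partners in 1 chain.

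Levels are given as CPM, the estimated fragments of a gene per 1e6 fragments of its library after scaling by the trimmed mean of M values (TMM). The 6 libraries held 19978399 to 20933082 fragments over genes. Of 24316 genes kept, 13258 passed a filter on low counts and were tested with edgeR's quasi-likelihood test, fitted over all 18 libraries. A gene is called higher or lower in T-N1G cells where the Benjamini-Hochberg adjusted p was under 0.05. Differences are log2 of T-N1G over mock with their standard errors (SE). Over the more abundant of the tested genes only, the median SD of log2 CPM between libraries was taken. At 0.3 µM it was 0.0483 for the mock line and 0.0737 for the T-N1G line. At 1.0 µM it was 0.1415 and 0.1751. Of 14 tested fibroblast markers, 7 were lower in T-N1G cells and 1 was higher. The 15 listed markers, with Lum below the filter, summed to 8596.5 to 9300.9 CPM in T-N1G and 11412.6 to 12015.7 CPM in mock libraries. As a set these markers were thus expressed in both lines. Leukocyte markers summed to at most 5.06 CPM in any library.

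The parts of the fusion were read first. Nfe2l1 stood at 4986.2, 4913.6 and 4012.2 CPM in T-N1G libraries 1, 2 and 3, and at 360.0, 373.4 and 393.4 CPM in the mock libraries. Its log2 difference was 3.63 (SE 0.139, edgeR adjusted p = 7.18e-13), a 12.3-fold higher level. Mafg stood at 885.8, 862.9 and 693.4 CPM against 0.546, 0.489 and 0.634 CPM. The T-N1G libraries were all far above the mock libraries for both genes, and T-N1G library 3 was the lowest of its group for both. The files place Nfe2l1 at chr11:96678727-96691282 and Mafg at chr11:120489666-120494861 of build mm9. Reads of the fusion and of the cells' own Nfe2l1 cannot be told apart in these counts. Under vehicle the T-N1G cells had 1102.0 ± 74.4 CPM (SD, n = 3) of Nfe2l1 and 158.8 ± 15.6 CPM of Mafg, both below their levels at 0.3 µM. The other genes labelled as deleted still held fragments over the 3 libraries of a group: Mafk held 127 in T-N1G and 169 in mock cells, and Maff 496 and 346. Counts over a whole gene do not show which part of it was deleted, so they do not check the label. Mafk did not pass (log2 -0.41, adjusted p = 0.106) except without T-N1G library 3 (-0.60, 0.0381). Maff was called higher with 8.13 ± 1.29 against 5.67 ± 0.622 CPM (log2 0.52, adjusted p = 0.04). That call was lost without mock library 2 (0.46, 0.123) or 3 (0.50, 0.0948) and without T-N1G library 2 (0.52, 0.0781) or 3 (0.40, 0.156).

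At 0.3 µM MG132 the lines differed at 6433 of 13258 genes, 48.5% of those tested. In T-N1G cells 3315 genes were higher (25.0%) and 3118 were lower (23.5%), and 1515 of the differences were of 2-fold or more, 796 higher and 719 lower. Under vehicle 2141 genes differed (16.1%), 1118 higher (8.43%) and 1023 lower (7.72%). Of the genes higher at 0.3 µM, 581 were also higher under vehicle, which is 17.5% of the higher genes at 0.3 µM and 52.0% of those under vehicle. Of the genes lower at 0.3 µM, 696 were also lower under vehicle, 22.3% and 68.0% of the 2 sets. The difference between the lines changed from vehicle to 0.3 µM at 3332 genes by the interaction term (25.1%), upward at 1878 (14.2%) and downward at 1454 (11.0%). The median log2 difference over all tested genes was 0.008 at 0.3 µM and 0.002 under vehicle. The gene lists below are read against these shares. Where libraries of the lines are said below to be apart, this describes the named genes only. The share of all tested genes with the lines apart was not counted. For the 8 largest differences in each direction and the largest interactions, no overlap was a condition for naming.

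**Figure D1:**
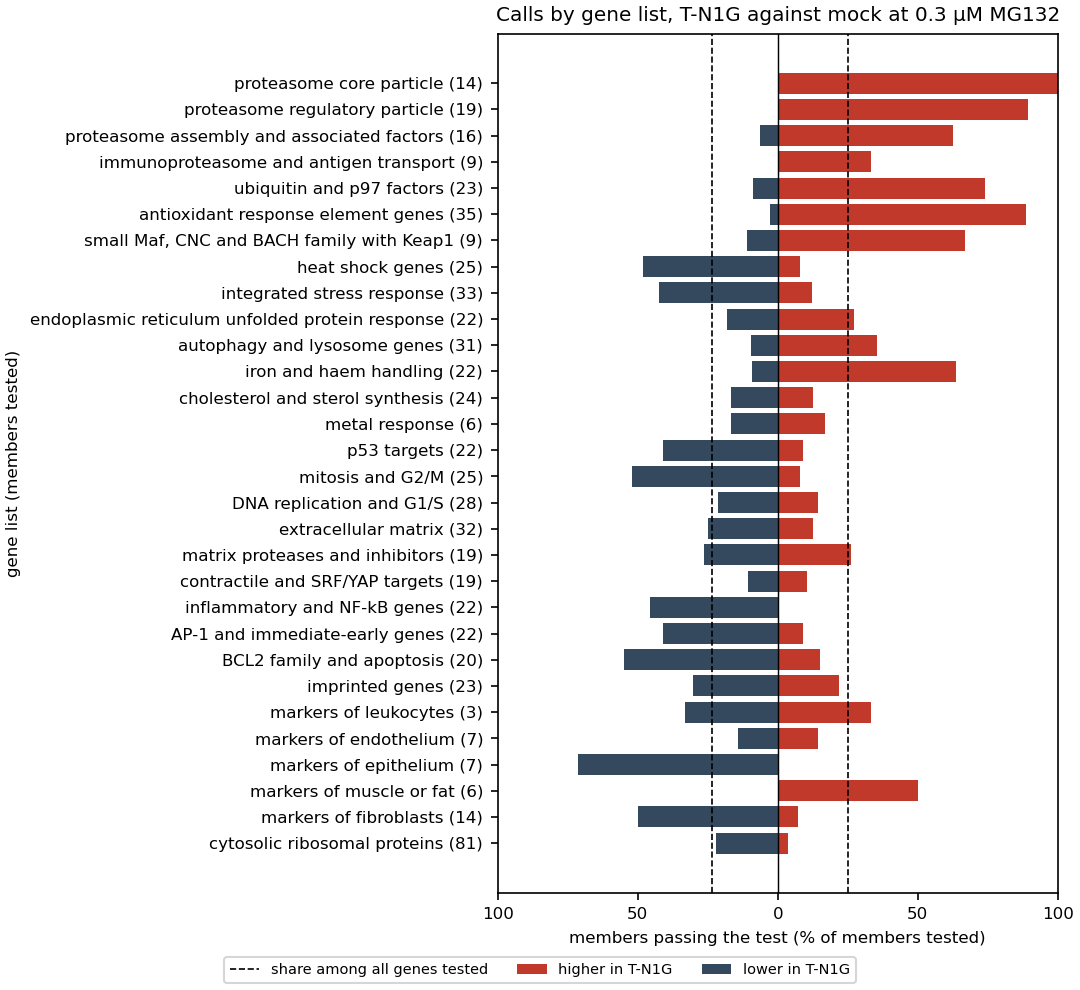
Share of the tested members of each gene list that were higher (right) or lower (left) in T-N1G cells at 0.3 µM MG132, in percent, with the number tested in parentheses. The dashed lines mark the shares over all genes tested, 25.0% higher and 23.5% lower; the 14 core proteasome genes reach 100% higher, and no member of the inflammatory list was higher.

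The antioxidant response element is usually written with the core letters TGACNNNGC. Promoter windows of 300 bases, 250 before to 50 after a gene's start, were taken from RefSeq on build GRCm38.p6 and searched on both strands for these letters (GCNNNGTCA on the other strand). They were found in 12.4% of all 32851 windows and for 17.0% of the 10027 tested genes with a window. Of the proteasome subunit genes, 5 of the 26 with a window held a match (19.2%): Psmb5, Psmb6, Psmc6, Psmd12 and Adrm1. The antioxidant list held a match for 11 of 30 genes (36.7%), and the heat shock list for 3 of 21 (14.3%). The share was 19.9% for genes higher in T-N1G cells, 21.5% for those higher by 2-fold or more and 15.6% for those lower. A match is only a run of letters and is no measure of binding.

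Printed below are 250 bases before to 10 bases after the start, 5′ to 3′ on the gene's strand, with the core letters in capitals. They are the windows of the 3 antioxidant and the 3 proteasome genes with the largest differences among those with a match in this stretch, and of Psma5, the subunit gene with the largest difference, which has none. Mgst1 lies on the + strand at chr6:138140277-138140536, Me1 on the - strand at chr9:86695905-86696164 and Gclm on the + strand at chr3:122245307-122245566. Psmc6 lies at chr14:45329574-45329833, Psmb6 at chr11:70525107-70525366, Psmd12 at chr11:107479278-107479537 and Psma5 at chr3:108256676-108256935, all on the + strand of GRCm38.p6.
Mgst1: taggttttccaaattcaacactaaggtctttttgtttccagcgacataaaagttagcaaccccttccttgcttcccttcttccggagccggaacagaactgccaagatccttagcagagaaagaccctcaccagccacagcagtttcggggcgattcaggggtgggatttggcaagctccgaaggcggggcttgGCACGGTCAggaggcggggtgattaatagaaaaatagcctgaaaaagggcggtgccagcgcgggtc
Me1: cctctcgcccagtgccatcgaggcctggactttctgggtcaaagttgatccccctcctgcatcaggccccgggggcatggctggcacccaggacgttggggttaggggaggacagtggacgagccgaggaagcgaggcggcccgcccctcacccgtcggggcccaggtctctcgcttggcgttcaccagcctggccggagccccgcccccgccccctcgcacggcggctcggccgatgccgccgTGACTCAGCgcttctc
Gclm: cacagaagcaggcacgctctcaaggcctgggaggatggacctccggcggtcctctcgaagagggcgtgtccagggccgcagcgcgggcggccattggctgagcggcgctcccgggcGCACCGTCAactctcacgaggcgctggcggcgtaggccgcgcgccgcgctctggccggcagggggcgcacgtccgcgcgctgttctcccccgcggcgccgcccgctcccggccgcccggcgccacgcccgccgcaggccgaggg
Psmc6: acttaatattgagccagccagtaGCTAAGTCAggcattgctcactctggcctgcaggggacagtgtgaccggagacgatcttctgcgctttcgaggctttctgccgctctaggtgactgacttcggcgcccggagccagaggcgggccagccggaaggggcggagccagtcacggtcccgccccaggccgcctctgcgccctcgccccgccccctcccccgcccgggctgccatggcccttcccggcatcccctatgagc
Psmb6: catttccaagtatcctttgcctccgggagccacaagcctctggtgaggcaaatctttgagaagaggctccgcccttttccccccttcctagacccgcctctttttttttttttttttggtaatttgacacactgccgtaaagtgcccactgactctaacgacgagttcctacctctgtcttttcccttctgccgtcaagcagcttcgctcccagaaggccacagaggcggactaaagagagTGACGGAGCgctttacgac
Psmd12: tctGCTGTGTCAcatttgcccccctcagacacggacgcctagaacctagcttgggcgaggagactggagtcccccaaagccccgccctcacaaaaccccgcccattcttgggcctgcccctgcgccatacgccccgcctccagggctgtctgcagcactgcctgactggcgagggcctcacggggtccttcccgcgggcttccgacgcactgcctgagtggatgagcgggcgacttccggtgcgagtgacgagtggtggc
Psma5: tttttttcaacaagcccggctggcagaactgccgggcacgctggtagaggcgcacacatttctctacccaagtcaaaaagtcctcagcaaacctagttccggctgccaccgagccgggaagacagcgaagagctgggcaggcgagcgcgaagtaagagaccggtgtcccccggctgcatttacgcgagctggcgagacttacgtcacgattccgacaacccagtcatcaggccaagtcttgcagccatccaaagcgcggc

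Genes of the proteasome, the barrel-shaped protease that degrades ubiquitin-tagged proteins, rose together in T-N1G cells at 0.3 µM. All 14 genes of the core particle, which holds the protease sites, and 17 of 19 genes of the regulatory particle, which binds and unfolds substrates, were higher, and none was lower. Of all tested genes, 25.0% were higher and 23.5% lower. The median log2 difference of the 33 genes was 1.30, against 0.20 for the same genes under vehicle, where 9 were higher. The interaction was upward for 31 of the 33, where 14.2% of all tested genes had an upward interaction. The 33 genes together reached 10591.4 ± 612 FPKM (fragments scaled to gene length and library depth, SD, n = 3) in T-N1G cells and 4459.3 ± 38.2 FPKM in mock cells at 0.3 µM. Under vehicle the sums were 4695.6 ± 183 and 4158.2 ± 112 FPKM. On this length-corrected scale the subunits ran from Psma5 at 50.1 to Psmb3 at 259.5 FPKM in mock cells, and from Psmd13 at 108.5 to Psmb3 at 621.2 FPKM in T-N1G cells.

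Psma5, an alpha subunit of the core ring, had the largest difference of the 33. It stood at 254.3, 281.0 and 250.7 CPM in T-N1G libraries and at 50.5, 55.0 and 52.4 CPM in mock libraries, with no overlap. Its log2 difference was 2.32 (SE 0.0983, edgeR adjusted p = 3.06e-12), a 4.98-fold higher level, against 0.54 under vehicle. The alpha subunit Psma1 followed with 402.8, 447.3 and 402.6 CPM against 109.4, 104.9 and 105.0 CPM (log2 1.97, SE 0.102). Psmd11, a scaffold subunit of the regulatory lid, was at 555.5, 603.1 and 572.2 CPM against 154.4, 149.7 and 155.6 CPM (log2 1.91, SE 0.0748). In each of these 3 genes the lowest T-N1G library lay above the highest mock library, and the mock libraries lay within a narrow band. The alpha subunit Psma7 (1.79) and the beta subunit Psmb4 (1.76) came next in the core, and Psmd7 (1.57), Psmd1 (1.51) and the ubiquitin receptor Psmd4 (1.49) in the regulatory particle. The smallest core difference was that of Psmb5, which carries the chymotrypsin-like site that MG132 blocks, with 130.7 ± 5.85 against 72.9 ± 1.60 CPM (log2 0.84, SE 0.105). Psmb6 and Psmb7, which carry the other catalytic sites, had 1.19 and 1.00. The 6 ATPases of the base, Psmc1 to Psmc6, ran from 1.07 for Psmc5 to 1.48 for Psmc3.

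Psmd8 and Shfm1, 2 small subunits of the regulatory particle, did not pass. Psmd8 read 245.8, 250.8 and 251.6 CPM in T-N1G and 269.5, 269.7 and 267.9 CPM in mock libraries, every T-N1G library being the lower (log2 -0.11, SE 0.158, adjusted p = 0.595). Shfm1 read 98.0, 99.7 and 86.6 against 74.0, 72.9 and 71.4 CPM (log2 0.38, SE 0.192, adjusted p = 0.114). The groups did not overlap for either gene, but the spread estimated over all 18 libraries was wider than that within these 2 groups. With these 6 libraries alone Shfm1 passed (adjusted p = 1.72e-05), and so did Psmd8 in the lower direction (adjusted p = 0.0416).

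**Figure D2:**
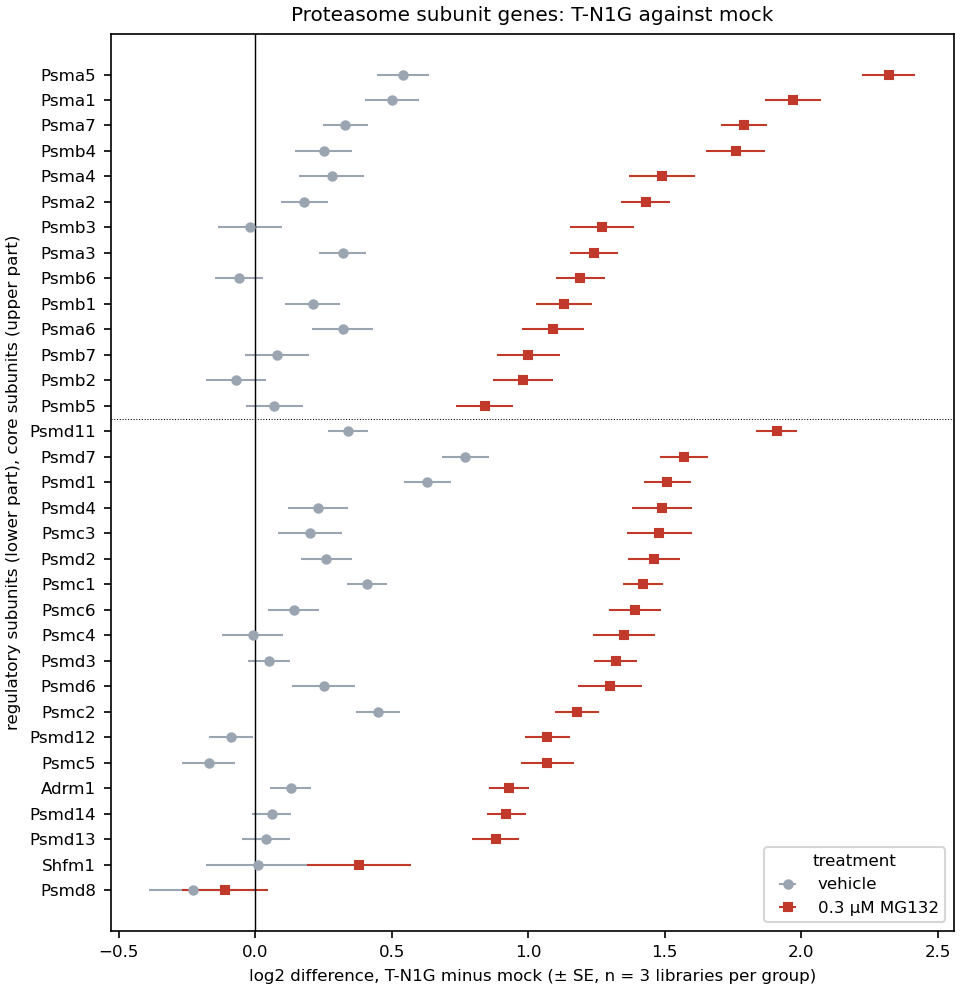
Log2 difference of T-N1G over mock cells for the 33 proteasome subunit genes, with standard errors, under vehicle (grey circles) and at 0.3 µM MG132 (red squares). All core genes (above the dotted line) lie between 0.84 and 2.32 at 0.3 µM, while Psmd8 and Shfm1 at the foot, at -0.11 and 0.38, did not pass.

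Factors that assemble, activate or accompany the proteasome followed in part. Of 16 tested, 10 were higher (62.5%, against 25.0% of all genes) and 1 was lower (6.25%, against 23.5%), with a median of 0.40. The base chaperone Psmd5 stood at 256.7, 283.4 and 252.8 against 76.0, 78.7 and 79.2 CPM (log2 1.76), the deubiquitinase Usp14 had a log2 of 1.55, Ecm29 (AI314180 in the files) 1.34 and the core maturation factor Pomp 1.28. Every T-N1G library lay above every mock library for Psmd5. Psme3, a nuclear proteasome activator, was the 1 lower member (-0.24), and it was lower under vehicle too (-0.30). In the immunoproteasome list 3 of 9 were higher (33.3%, against 25.0% of all genes). They were the peptide transporter Tap2 (1.86), tapasin Tapbp (1.38) and the activator Psme2 (0.60). Of the catalytic subunits in that list, Psmb8, Psmb9 and Psmb10 had log2 differences of 0.05, 0.61 and 0.23 and did not pass. They were singled out after their values were seen.

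Among 23 ubiquitin and p97 factors 17 were higher (73.9%, against 25.0% of all genes) and 2 were lower (8.7%, against 23.5%), with a median of 0.55. Zfand5, a zinc finger protein that stimulates the proteasome, stood at 226.2, 223.4 and 212.3 CPM against 59.1, 61.0 and 61.3 CPM (log2 1.87, SE 0.0932), with all T-N1G libraries above all mock libraries. The p97 cofactors Nsfl1c and Ufd1l had 1.46 and 1.28, and the shuttle protein Ubqln2 1.25. The 3 factors that process Nrf1 itself did not move alike; Vcp and Ngly1 were singled out after their values were seen. Vcp, which encodes p97, had 2243.0 ± 78.9 against 1054.1 ± 30.2 CPM (log2 1.09), and Ngly1, which removes N-linked sugars, had 9.58 ± 0.868 against 4.22 ± 0.535 CPM (log2 1.18). Ddi2, the protease that cuts Nrf1, was lower with 54.6, 56.0 and 52.3 against 76.9, 81.9 and 75.6 CPM (log2 -0.52, SE 0.078). The ubiquitin fusion gene Rps27a was the other lower member (-0.60), and it was lower under vehicle as well (-0.40).

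Genes of the antioxidant response, most of them known targets of Nrf2 and its small Maf partners, were the most widely raised list after the proteasome. Of 35 tested, 31 were higher in T-N1G cells (88.6%, against 25.0% of all genes) and 1 was lower (2.86%, against 23.5%). The median log2 was 1.54. Under vehicle 17 of the 35 were higher and none was lower. The interaction was upward for 27 and downward for 1. Gsta3, the remaining member of 36, was below the filter on low counts.

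Glutathione transferases had the largest differences of this list. The microsomal glutathione transferase Mgst1 stood at 30.6, 26.7 and 23.2 CPM in T-N1G libraries and at 0.298, 0.0979 and 0.0488 CPM in mock libraries (log2 7.45, SE 0.374, edgeR adjusted p = 3.94e-11). The mock libraries held few fragments of it, so the size of this difference rests on few fragments. Gsta4, which conjugates lipid aldehydes, stood at 25.8, 29.5 and 35.1 against 1.09, 0.881 and 0.683 CPM (log2 5.08, SE 0.279). Gstm1 stood at 45.2, 45.1 and 45.0 against 2.13, 3.03 and 2.63 CPM (log2 4.11, SE 0.12). All libraries of the 2 lines were apart for these 3 genes, and all 3 were already higher under vehicle, by 4.96, 2.06 and 2.88. Reads of related glutathione transferase genes may have been shared between family members. Blvrb, given below with the haem genes, came next. Nqo1, the quinone reductase, stood at 22.0, 25.0 and 21.0 against 2.08, 2.30 and 2.00 CPM (log2 3.41, SE 0.124), and Osgin1, an oxidative stress growth inhibitor, had 3.40.

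Genes of thiol and glutathione supply were higher as well, most of them with an upward interaction. Srxn1, the sulfiredoxin that repairs peroxiredoxins, stood at 302.5, 281.5 and 253.3 CPM against 25.9, 24.7 and 29.1 CPM (log2 3.39, SE 0.152), while under vehicle its difference was 0.45 and the interaction 2.95 (SE 0.204, edgeR adjusted p = 2.12e-08). Slc7a11, the cystine importer, stood at 80.2, 71.1 and 67.3 against 17.8, 14.9 and 18.9 CPM (log2 2.08, SE 0.261), against 0.04 under vehicle, which did not pass. In both genes the lines were separated at 0.3 µM. Gclm and Gclc, the modifier and catalytic subunits of glutamate-cysteine ligase, had 2.38 and 1.17, glutathione reductase Gsr 1.80, peroxiredoxin Prdx1 1.86 and thioredoxin reductase Txnrd1 0.66. The NADPH-making enzymes Me1 (2.52), Pgd (1.69), Taldo1 (1.54), G6pdx (0.85) and Tkt (0.57) were higher as well. Me1 stood at 347.2, 371.0 and 325.6 against 62.8, 60.0 and 59.0 CPM and was the member of this set with the largest difference under vehicle, 1.90.

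Hmox1, haem oxygenase, went the other way. It stood at 1771.4, 1773.7 and 1581.4 CPM in T-N1G libraries and at 3451.3, 3205.8 and 3345.0 CPM in mock libraries (log2 -0.96, SE 0.17, edgeR adjusted p = 0.000148), a 1.95-fold lower level with no overlap. Its level was 917.9 ± 16.5 and 1130.0 ± 54.0 CPM under vehicle, where the difference of -0.30 did not pass. The haem and iron genes otherwise mostly rose. Of 22 tested, Hmox1 among them, 14 were higher (63.6%, against 25.0% of all genes) and 2 lower (9.09%, against 23.5%), with a median of 0.41. Biliverdin reductase Blvrb stood at 106.8, 103.2 and 98.9 against 9.78, 8.71 and 8.49 CPM (log2 3.52, SE 0.105), and the haem transporter Slc48a1 at 351.4, 320.0 and 291.7 against 43.0, 38.9 and 41.1 CPM (log2 2.97). The porphyrin transporter Abcb6 had 2.53, and the ferritin chains Fth1 and Ftl1 had 1.66 and 1.01. Heph, a copper ferroxidase, was at 6.63 ± 0.305 CPM in T-N1G and at 0.0656 ± 0.0568 CPM in mock cells. Aco1, the iron-sensing aconitase, was the other lower member (-0.34). Blvrb, Slc48a1 and Hmox1 also stand in the antioxidant list.

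**Figure D3:**
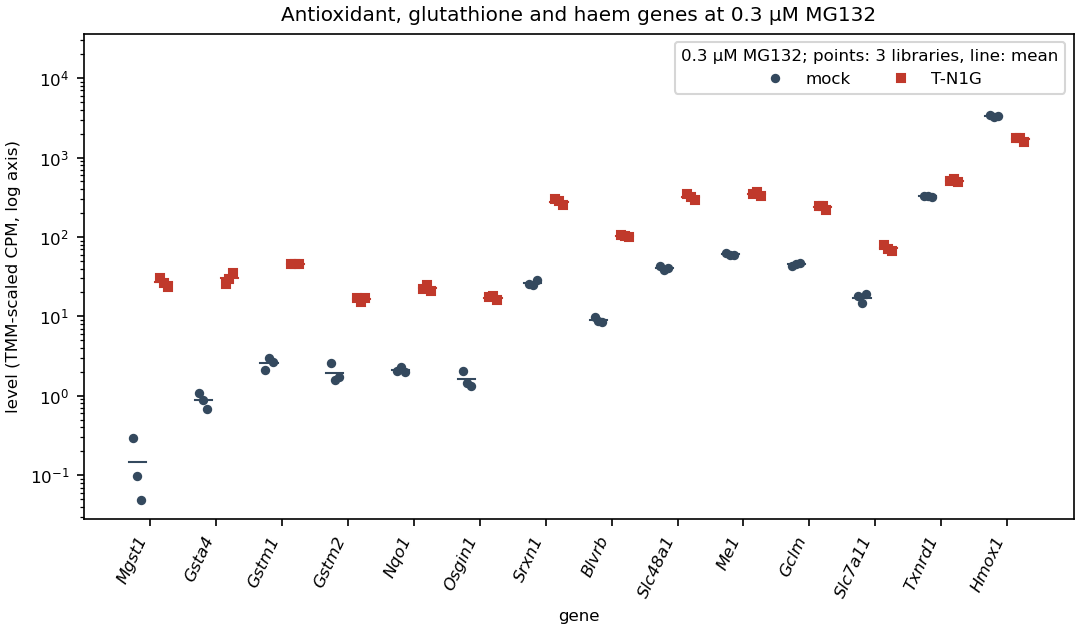
Level of 14 antioxidant and haem genes in each of the 6 libraries at 0.3 µM MG132, in CPM on a log axis; circles are mock, squares T-N1G, short lines the mean of 3 libraries. These 14 were picked from the antioxidant list. The lines are apart for each, with T-N1G above mock for 13 and below it for Hmox1. How many of all tested genes had lines apart was not counted.

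The remaining factors of this pathway were read from the Maf, cap'n'collar and BACH family. Keap1, which holds Nrf2 in the cytoplasm, stood at 129.8, 123.6 and 120.9 CPM against 33.9, 37.2 and 34.0 CPM (log2 1.83, SE 0.0902). Nfe2l2, which encodes Nrf2, stood at 93.4, 88.0 and 81.9 against 43.3, 40.9 and 44.9 CPM (log2 1.03, SE 0.139), and the repressor gene Bach1 had 0.66. All T-N1G libraries were above all mock libraries for Keap1 and Nfe2l2, and all 3 genes were also higher under vehicle (0.43, 0.65 and 0.50). Nfe2l3, the closest relative of Nfe2l1, was lower at 0.427 ± 0.234 against 1.03 ± 0.452 CPM (log2 -1.26, adjusted p = 0.0214). Those groups overlapped, and the call was lost without mock library 1 (log2 -0.90, adjusted p = 0.133), T-N1G library 2 (-1.0, 0.0951) or T-N1G library 3 (-1.11, 0.0771).

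Genes of selective autophagy and the lysosome contained a few strong differences among many small ones. Of 31, 11 were higher (35.5%, against 25.0% of all genes) and 3 lower (9.68%, against 23.5%), with a median of 0.13. Gabarapl1, which encodes an autophagosome protein, stood at 363.9, 371.2 and 343.2 against 67.6, 74.6 and 68.4 CPM (log2 2.36, SE 0.127), and the lysosomal protease Ctsd at 1266.9, 1266.8 and 1287.9 against 404.5, 398.3 and 417.2 CPM (log2 1.65). Sqstm1, the cargo receptor p62 that also binds Keap1, was at 2812.9 ± 69.4 against 1143.9 ± 5.68 CPM (log2 1.30), and the proton pump subunit Atp6v1h at 1.30. These 4 genes had no overlap between the lines. The related Map1lc3a (-0.52) and Gabarap (-0.36) were lower.

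Heat shock genes, which cells induce when misfolded protein accumulates, were on balance lower in T-N1G cells. Of 25 tested, 12 were lower (48.0%, against 23.5% of all genes) and 2 were higher (median -0.31). The inducible chaperone Hspa1a stood at 36.7, 39.1 and 25.2 CPM in T-N1G and at 121.9, 73.2 and 100.3 CPM in mock libraries (log2 -1.55, SE 0.286, edgeR adjusted p = 0.000459). Its near-identical neighbour Hspa1b stood at 281.3, 292.1 and 219.6 against 704.9, 518.7 and 645.6 CPM (log2 -1.24, SE 0.182), and reads may have been split between these copies. The small chaperone Hspb1 stood at 149.4, 141.6 and 98.7 against 373.2, 251.8 and 384.7 CPM (log2 -1.37, SE 0.185). All mock libraries were above all T-N1G libraries for the 3 genes. Under vehicle these levels were far lower in both lines, such as 16.4 ± 0.704 and 23.4 ± 1.25 CPM for Hspa1b. The interaction of none of the 3 passed, with -1.30 for Hspa1a (adjusted p = 0.0955), -0.73 for Hspa1b (0.0544) and -0.65 for Hspb1 (0.0974). The Hsp110 family member Hspa4l had -1.03.

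Hspb8 and Hsf2 were the higher members of that list. Hspb8, a small chaperone of the autophagy pathway, stood at 10.3, 8.25 and 7.50 against 4.27, 2.79 and 3.61 CPM (log2 1.28, SE 0.231). Its difference was larger under vehicle (2.95, interaction -1.67). The transcription factor Hsf2 stood at 115.7, 126.4 and 114.1 against 68.2, 65.9 and 70.0 CPM (log2 0.80). T-N1G libraries were above mock libraries for both. The chaperone gene Hspa8 was dropped for excess reads.

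The integrated stress response list holds genes that follow a block in translation or a lack of amino acids. Of 33 tested, 14 were lower (42.4%, against 23.5% of all genes) and 4 were higher (12.1%, against 25.0%), with a median of -0.21. Under vehicle 10 were lower, where 7.72% of all genes were, and 1 was higher, with the same median of -0.21. The interaction was upward for 4 and downward for 2. Stc2, a secreted stress glycoprotein, stood at 3.27, 4.15 and 3.73 against 11.1, 11.1 and 13.1 CPM (log2 -1.66, SE 0.237), and the arginine transporter Slc7a3 had -1.57 and the mTORC1 inhibitor Ddit4 -1.02. All T-N1G libraries lay below all mock libraries for Stc2. Aars, an alanyl-tRNA synthetase (0.59), and the transcription factor Atf5 (0.62) were higher. The unfolded protein response list of the endoplasmic reticulum showed no lean (median -0.03). Of 22 tested, 6 were higher (27.3%, against 25.0% of all genes) and 4 lower (18.2%, against 23.5%). Dnajb9 (0.81) and Pdia4 (0.55) rose there, and P4hb (-0.57) and Xbp1 (-0.47) fell.

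Pro-apoptotic genes of the BCL2 family were among the lower genes. Of 20 apoptosis genes 11 were lower (55.0%, against 23.5% of all genes) and 3 higher (15.0%, against 25.0%), with a median of -0.40. Pmaip1, the BH3-only protein Noxa, stood at 157.5, 172.7 and 154.0 CPM in T-N1G and at 433.6, 418.0 and 485.2 CPM in mock libraries (log2 -1.47, SE 0.124, edgeR adjusted p = 2.59e-08). Bcl2l11, the BH3-only protein Bim, stood at 18.1, 19.9 and 17.3 against 46.1, 45.9 and 43.6 CPM (log2 -1.29, SE 0.117). The effector-like Bok stood at 10.8, 10.7 and 10.4 against 21.6, 22.5 and 21.7 CPM (log2 -1.05). The lines were fully apart for these 3 genes. Under vehicle Bcl2l11 was the higher in T-N1G cells (0.38), with an interaction of -1.67 (SE 0.166, adjusted p = 1.13e-06). The effector Bak1 was higher, with 171.0, 170.7 and 161.3 against 90.3, 90.1 and 92.1 CPM (log2 0.88, SE 0.057). Bad, also pro-apoptotic, was higher too (log2 0.34, edgeR adjusted p = 0.0247). Its call was lost without mock library 1 (edgeR adjusted p = 0.0802) or 3 (0.0797) or T-N1G library 3 (0.116). The list also holds survival genes, and of those Bcl2l1 (-0.70), Bcl2 (-0.52) and Mcl1 (-0.27) were lower; they were singled out after their values were seen.

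Of 22 p53 targets 9 were lower (40.9%, against 23.5% of all genes) and 2 higher (9.09%, against 25.0%), with a median of -0.30. Under vehicle 6 were already lower, where 7.72% of all genes were, and 1 was higher (median -0.23). The interaction was upward for 3 and downward for 4. Pmaip1 is shared with the apoptosis list. Trp53inp1 (-0.81), an autophagy and apoptosis regulator, was lower. Gadd45a, a growth arrest gene, stood at 126.5, 125.0 and 122.7 against 73.3, 76.5 and 74.2 CPM (log2 0.74), and Mdm2, the ubiquitin ligase of p53, at 186.0, 195.1 and 196.0 against 166.7, 152.0 and 157.0 CPM (log2 0.28, adjusted p = 0.0183). Both were above mock in every library. Mdm2 was lower in T-N1G cells under vehicle (-0.28, interaction 0.56), and its call at 0.3 µM was lost without mock library 2 (log2 0.25, adjusted p = 0.0694), mock library 3 (0.27, 0.0511) or T-N1G library 3 (0.26, 0.0521).

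No gene of the inflammatory and NF-kB list was higher, and 10 of 22 tested were lower (45.5%, against 23.5% of all genes). The median was -0.46. Tnfaip3, the feedback inhibitor A20, stood at 9.11, 10.8 and 7.88 against 44.8, 33.4 and 35.2 CPM (log2 -2.03, SE 0.182, edgeR adjusted p = 7.88e-08). The chemokine genes Ccl7 and Ccl2 stood at 24.3, 21.0 and 14.5 against 73.9, 76.3 and 75.3 CPM (-1.91) and at 31.1, 27.7 and 20.8 against 82.2, 84.3 and 85.9 CPM (-1.66). The cytokine gene Lif had -1.34. All T-N1G libraries were below all mock libraries for Tnfaip3, Ccl7 and Ccl2, with T-N1G library 3 the lowest each time. Tnfaip3 differed under vehicle by -0.45, which did not pass, and Ccl2 by -0.98, which did. The other 6 listed genes, among them Tnf and Il1b, were below the filter on low counts.

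Immediate-early genes, which growth factor and stress signals switch on within minutes, leaned the same way. Of 22 tested, 9 were lower (40.9%, against 23.5% of all genes) and 2 higher (9.09%, against 25.0%), with a median of -0.48. The nuclear receptor Nr4a1 stood at 11.8, 9.81 and 9.46 against 33.6, 34.8 and 33.6 CPM (log2 -1.71, SE 0.183). The phosphatases Dusp4 and Dusp6, which act on MAP kinases, had -1.63 and -1.35, and Nr4a2 had -1.61. Dusp4 was lower by as much under vehicle (-1.62), whereas Nr4a2 had a vehicle difference of 0.02. Fosl1, the AP-1 member Fra-1, was higher with 45.6 ± 2.66 against 21.1 ± 2.22 CPM (log2 1.12, SE 0.176). T-N1G and mock libraries did not overlap for Nr4a1 or Fosl1.

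**Figure D4:**
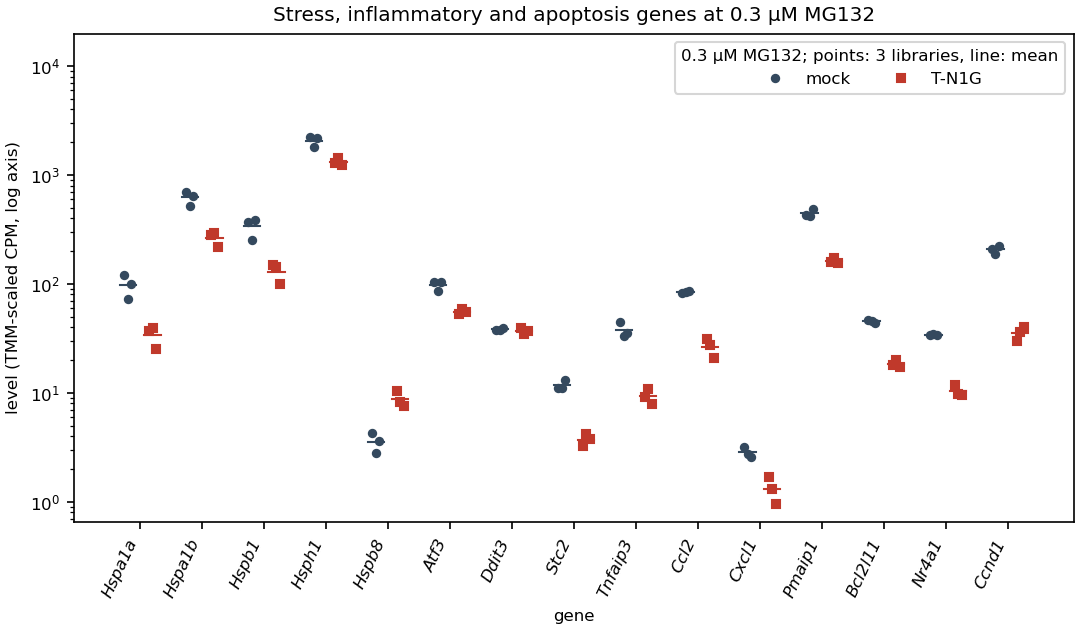
Level of 15 stress, inflammatory and apoptosis genes in each of the 6 libraries at 0.3 µM MG132, in CPM on a log axis; circles are mock, squares T-N1G, short lines the mean of 3 libraries. These 15 were picked, and higher members of the same lists, such as Bak1, Hsf2 and Fosl1, are not shown. Hspb8 is the gene with T-N1G above mock, and the libraries of Ddit3 overlap. The other 13 have all T-N1G libraries below all mock libraries. How many of all tested genes had lines apart was not counted.

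Cell cycle genes were read in 2 lists. Of 25 mitotic genes 13 were lower (52.0%, against 23.5% of all genes) and 2 higher (8.0%, against 25.0%), with a median of -0.26. The lower genes were led by the kinesins Kif23 (-0.96) and Kif20a (-0.67) and by Cdc20 (-0.72). The spindle checkpoint kinase gene Bub1b was higher, with 188.6, 195.9 and 191.7 against 82.7, 90.4 and 82.1 CPM (log2 1.17, SE 0.115). Bub1b did not differ between the lines under vehicle by the test (0.15). Of 28 replication genes 6 were lower (21.4%, against 23.5% of all genes) and 4 higher (14.3%, against 25.0%), with a median of -0.03. Ccnd1, the G1 cyclin D1, stood at 30.1, 36.4 and 40.5 against 208.8, 189.9 and 223.9 CPM (log2 -2.54, SE 0.254), a 5.82-fold lower level. It was also lower under vehicle (-1.71), and the interaction of -0.83 did not pass (adjusted p = 0.0879).

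Markers of other cell types were read for what else the cultures could hold. In bulk RNA, fewer cells of a type and less RNA per cell cannot be told apart. Of 7 tested epithelial markers 5 were lower (71.4%, against 23.5% of all genes) and none was higher. The list summed to 65.5 to 72.9 CPM in T-N1G and 262.2 to 304.1 CPM in mock libraries. Most of that sum was Krt19, with 33.9, 39.9 and 44.3 against 220.6, 204.3 and 241.3 CPM (log2 -2.50, SE 0.154), while the defining markers Epcam, Krt5, Cldn3, Cldn7 and Esrp1 were below the filter. Cdh1, E-cadherin, was below 2 CPM in every library. Among fibroblast markers Vim stood at 896.9, 1056.1 and 1189.5 against 2380.0, 2584.3 and 2385.5 CPM (log2 -1.23, SE 0.248), and the transcription factor Twist2 had -1.34. Fap was the 1 higher member (1.73). Its call was lost without mock library 2 (log2 1.64, edgeR adjusted p = 0.0921) or 3 (1.38, 0.124). It was also lost without T-N1G library 1 (1.64, 0.084) or 2 (1.19, 0.198), and with DESeq2 (1.78, 0.0525). Under vehicle 4 fibroblast markers were higher in T-N1G cells and none was lower (median 0.25). The lines did not overlap for Krt19, Vim or Twist2. Endothelial markers summed to 15.2 to 17.2 CPM in T-N1G and 25.8 to 33.9 CPM in mock libraries. Of the 7 tested, 1 was higher and 1 lower (14.3% each, against 25.0% and 23.5% of all genes). Of 6 tested muscle or fat markers 3 were higher and none was lower, and the list summed to 38.4 to 43.4 CPM in T-N1G and 28.6 to 33.1 CPM in mock libraries. Lpl, lipoprotein lipase, made up much of that sum with 18.1, 21.9 and 19.6 against 10.4, 10.4 and 9.56 CPM (log2 0.98). The embryonic myosin gene Myh3 (2.26) and desmin Des (0.92) were below 2 CPM in each of these libraries. The call of Des was lost without mock library 1 (log2 0.93, adjusted p = 0.0934) or 2 (0.58, 0.21), without T-N1G library 1 (0.85, 0.115) or 3 (0.87, 0.106) and with DESeq2 (0.91, 0.0921), library size alone (0.91, 0.053) or no filter (0.92, 0.0621). The defining markers Myod1, Myog, Actc1, Adipoq, Plin1 and Cidec were below the filter. The part of these markers in the results above was not tested.

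The 8 largest differences in each direction, among genes with a mean of at least 10 CPM in the higher line and no overlap at 0.3 µM, all passed in the same direction under vehicle. Higher in T-N1G cells, beside Mafg, Mgst1, Gsta4 and Gstm1, were Ttn, which encodes the giant muscle protein titin (log2 4.91), Fam13a (4.71), the membrane repair gene Dysf (4.19) and Mlkl, the executor of necroptosis (4.06). On the length-corrected scale Ttn was low, with a mean of 0.392 FPKM in T-N1G and 0.0131 FPKM in mock cells. Mlkl stood at 93.3, 88.3 and 79.1 against 5.61, 4.55 and 5.41 CPM. Fam13a stood at 41.9, 34.3 and 36.2 against 1.49, 1.52 and 1.27 CPM, and differed under vehicle by 0.52 (interaction 4.19, SE 0.222, edgeR adjusted p = 1.34e-09). Lower were Zdbf2 (-6.86), the mast cell tryptase gene Tpsab1 (-3.74), Sorbs2 (-3.57), Wnt7a (-3.06), Ak4 (-2.82), Myrf (-2.79), the glutamine transporter Slc38a1 (-2.66) and desmoplakin Dsp (-2.63). The imprinted gene Zdbf2 stood at 0.0495, 0.152 and 0.0478 against 9.83, 9.59 and 11.4 CPM, a level of few fragments in each T-N1G library.

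Among genes that passed at 0.3 µM with the same limits on level and overlap, the largest upward changes from vehicle in the difference between the lines were those of Fam13a, Fbxo2, Gsta4, Srxn1 and Cpxm1. Fbxo2, a ubiquitin ligase subunit that recognises glycoproteins, stood at 30.5, 29.5 and 33.6 against 2.13, 2.45 and 2.63 CPM at 0.3 µM and at 2.40 ± 0.326 against 2.48 ± 0.317 CPM under vehicle. Its interaction was 3.74 (SE 0.2). Cpxm1 stood at 141.7, 132.0 and 151.6 against 7.89, 10.3 and 10.1 CPM, with a vehicle difference of 0.99. The means of the lines for Fbxo2 lay within the spread of the libraries without MG132 and far outside it at 0.3 µM. Under these limits the largest downward interactions were those of Fam84b (-2.27), Slc7a2 (-2.16), Hr (-2.08), Plagl1 (-2.01) and Lxn (-1.95). Except for Slc7a2, whose vehicle difference of 0.83 did not pass, in these the T-N1G line was above mock under vehicle and below it at 0.3 µM. The call of Slc7a2 at 0.3 µM (log2 -1.33) was lost without T-N1G library 2 (-1.27, adjusted p = 0.0525). In the same way 62 genes were higher at 0.3 µM and lower under vehicle, and 117 the reverse.

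The calls were unevenly spread over the chromosomes. Chromosome 11 held 8.36% of the tested genes and 14.7% of the lower calls: of 1109 tested genes 457 were lower (41.2%) and 147 higher (13.3%). The median log2 difference of its genes was -0.25 at 0.3 µM and -0.22 under vehicle, and the median interaction was -0.03. Chromosome 4 had a like lean, with 283 of 835 genes lower (33.9%) and medians of -0.17 and -0.19. When chromosome 11 was divided along its length into 10 blocks of near equal gene number, every block had a negative median, from -0.41 to -0.11. On chromosome 4, 9 of 10 such blocks had a negative median, and the fourth, at 0.03, had 23 genes higher and 17 lower. Both Nfe2l1 and Mafg lie on chromosome 11. The lower genes of highest level there were Col1a1, Npm1 and Gnb2l1, and Npm1, a nucleolar protein, stood at 1017.0, 1238.7 and 1150.3 against 2072.6, 2214.3 and 2044.1 CPM (log2 -0.89). The proteasome genes Psmd11, Psmb6 and Psmd12 of chromosome 11 were higher nonetheless, by 1.91, 1.19 and 1.07. All 4 tested genes of chromosome Y were higher, among them Ddx3y with 32.1, 29.9 and 26.4 against 10.5, 10.8 and 10.6 CPM (log2 1.47), Uty (1.07) and Eif2s3y (0.62). With 1 line of each kind, differences that came with the line and differences made by the fusion cannot be told apart.

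**Figure D5:**
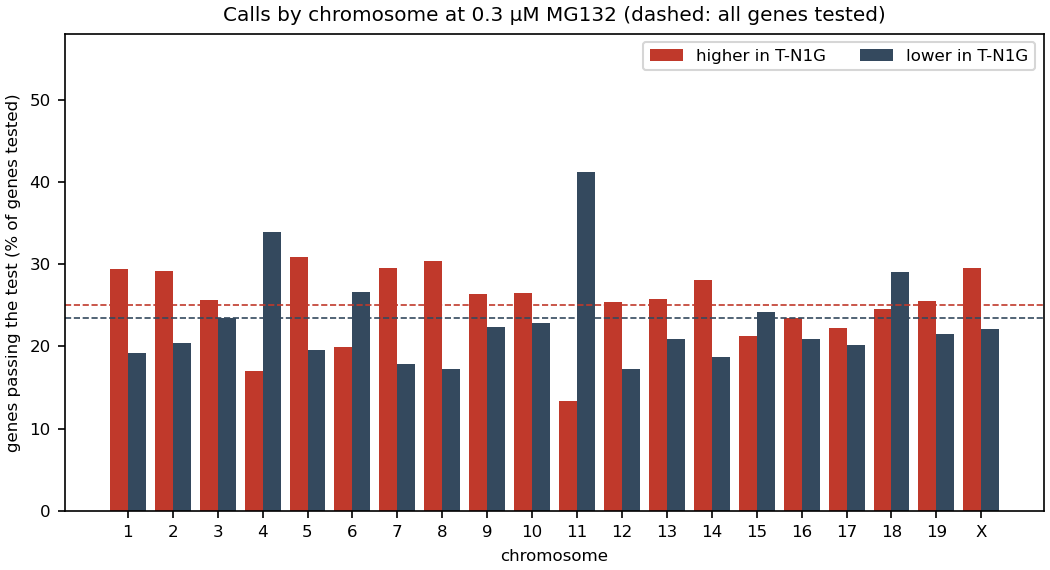
Share of the tested genes of each chromosome that were higher (red) or lower (dark) in T-N1G cells at 0.3 µM MG132, in percent, with the shares over all genes as dashed lines; chromosome Y, with 4 tested genes, is left out. Chromosome 11 reaches 41.2% lower and chromosome 4 33.9%, against 23.5% of all genes.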

How the data were processed

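Gene-level RNA-seq of 18 libraries was used, 6 of them for the main comparison. The authors worked with Cuffdiff 2.1.1, TopHat2 2.0.8b and bcl2fastq 2.16.0.10 on mouse build mm9, per the submitters' processing notes. The annotation and the strand setting of the counting are not stated in what was used here. Per the file headers, the deposited table gives, for each gene in each library, the estimated count of fragments before scaling and an FPKM value after it. Of the estimated counts, 98.16% to 98.51% per library were whole within 1e-06, and all were rounded. The files' condition names were read as the labelled groups (N1 as T-N1G, L-MG as 0.3 µM MG132), and Cuffdiff's replicates 0 to 2 were taken as libraries 1 to 3 of the titles, a link the files do not state. Genes marked in the files as having too many fragments were dropped, Hspa8 (9 libraries) among them. Some list members are not reported here. FPKM values had failed in at least 1 library for 20 genes, Nfe2l1 among them, whose counts were kept.

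edgeR 4.0.16 in R 4.3.3 (filterByExpr, TMM, quasi-likelihood F test on 6 group means, 12 residual degrees of freedom) was fitted to all 18 libraries, with Benjamini-Hochberg adjustment over 13258 genes. The procedure was tested on simulated data. No 2 libraries of a group agreed within sampling noise (chi-square per degree of freedom at least 2.816). Alternatives were DESeq2 1.42.0, other scalings, no filter, fewer libraries, a replicate block and a stricter threshold. Promoter windows came from RefSeq on GRCm38.p6 and were matched by symbol.

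The comparison and the gene lists were chosen with earlier results of these data known. Named are the fusion's genes, the 8 largest differences in each direction with a mean of at least 10 CPM and no overlap between groups, up to 4 leading and 2 opposite members of each list, all members of the proteasome, antioxidant and Maf lists, the 5 largest interactions in each direction under the same limits, up to 6 list members that changed direction from vehicle, and the 3 most abundant called genes of a chromosome with over 1.5 times its share of calls.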

Additional observations from a re-analysis of the deposited data

Results flagged for a closer look

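By the interaction term of edgeR's quasi-likelihood test, the difference between T-N1G and mock cells at 0.3 µM MG132 differed from that under vehicle at 3332 genes. Among genes that passed at 0.3 µM without overlap and with a mean of at least 10 CPM in the higher line, the largest upward were Fam13a with an interaction of 4.19 (log2), Fbxo2 with 3.74, Gsta4 with 3.02, Srxn1 with 2.95 and Cpxm1 with 2.91, all further up in T-N1G cells with MG132. Fam84b at -2.27, Slc7a2 at -2.16, Hr at -2.08, Plagl1 at -2.01 and Lxn at -1.95 were further down.

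A set of list members passed in opposite directions in the 2 treatments. Cdh1 (interaction -2.48), the protease Plau (-1.74), Bcl2l11 (-1.67), the growth factor receptor Pdgfra (-1.67) and Plagl1 were above mock in the T-N1G line under vehicle and below it at 0.3 µM, and Mdm2 (0.56) was the reverse. Plau stood at 41.2 ± 5.06 against 26.9 ± 2.03 CPM under vehicle and at 8.27, 8.15 and 9.07 against 19.7, 18.4 and 17.6 CPM at 0.3 µM. Pdgfra stood at 111.1 ± 5.64 against 53.2 ± 4.55 CPM under vehicle (SD, n = 3 each) and at 73.1 ± 9.22 against 111.5 ± 3.10 CPM at 0.3 µM. Cdh1 held at most 2 CPM in any of these groups, and its call at 0.3 µM was lost without mock library 1 (log2 -0.81, adjusted p = 0.163) or 2 (-1.13, 0.0615) and without T-N1G library 2 (-0.77, 0.145) or 3 (-1.10, 0.0756).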

How the results depend on the processing

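The count of genes that differed at 0.3 µM, 6433, was 6470 with DESeq2, 6428 with DESeq2's size factors, 6321 with library size alone, 6136 without the filter on low counts, 7914 with the 6 libraries alone, 8192 with the 12 libraries of vehicle and 0.3 µM, and 5460 to 5750 leaving out 1 library at a time. The share of calls that were higher stayed between 49.1% and 53.6%. The count of interactions, 3332, fell to 1925 at an adjusted p under 0.01 and was 5873 with the 12 libraries of vehicle and 0.3 µM, which are also the groups it compares; the 9 lower immediate-early genes became 15 with those 12 libraries and 14 with the 6 alone. The cause was not tested. Whether library numbers pair the samples was not settled. Across the more abundant genes, deviations of same-numbered mock and T-N1G libraries at 0.3 µM correlated at 0.158, -0.115 and 0.04. Those of differently numbered libraries ran from -0.335 to 0.25. With the number as a replicate block 6914 genes differed and 3837 had an interaction. An alternative chosen after seeing the data left out 1 library number of both groups at 1.0 µM, whose libraries spread furthest, and gave 7042, 7315 and 7101 differing genes. Over 208 named genes and all alternatives no direction reversed, 24 genes lost their call under at least 1 alternative and 6 gained one.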

Other observations

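Of 81 ribosomal protein genes tested at 0.3 µM, 60 did not pass, 18 were lower in T-N1G cells (22.2%, against 23.5% of all genes) and 3 were higher, with a median log2 of -0.14. Sterol synthesis showed 3 of 24 genes higher (12.5%, against 25.0% of all genes) and 4 lower (16.7%, against 23.5%). Insig1, which holds back sterol regulators, had -0.81. Of 32 extracellular matrix genes 4 were higher and 8 lower (25.0%, near the 23.5% of all genes). Among the lower were the collagen genes Col8a1 (-1.37) and Col15a1 (-1.29) and the fibrillin gene Fbn1 (-0.88). The call of Fbn1 was lost without mock library 2 or 3 or any 1 T-N1G library (edgeR adjusted p 0.0541 to 0.0707). Among the higher were Col4a1 (0.65) and Col4a2 (0.70), which encode basement membrane chains.

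Of 23 imprinted genes 5 were higher (21.7%, against 25.0% of all genes) and 7 lower (30.4%, against 23.5%), with a median of -0.03. Zdbf2, described above, had the lowest value of that list (-6.86). Mest stood at 111.7, 115.3 and 125.7 CPM in T-N1G and at 11.5, 12.8 and 11.7 CPM in mock libraries (log2 3.29, SE 0.167), and Meg3, a long noncoding RNA singled out after its values were seen, at 5.10, 3.49 and 3.34 against 20.7, 21.7 and 18.2 CPM (-2.34, SE 0.226). The lines were apart for both genes, and both differed in the same direction under vehicle (3.00 and -1.73). Impact, a translation regulator, stood at 248.1, 243.9 and 253.5 against 33.7, 37.9 and 37.4 CPM (log2 2.77), against 0.62 under vehicle. Of 19 matrix proteases and inhibitors 5 were higher and 5 lower (26.3% each, against 25.0% and 23.5% of all genes). Mmp19 had 3.17, with 6.04, 2.78 and 3.68 against 0.447, 0.343 and 0.585 CPM, Mmp13 had -2.28 and Adamts9 -1.31, each at low levels. Mmp10 was called lower on 3 fragments in T-N1G and 25 in mock libraries, a call that was lost without T-N1G library 1 (edgeR adjusted p = 0.0523).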
